A study of Homo sapiens with 10 samples.

Results

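The IL1 cytokine region of chromosome 2 holds IL1A and IL1B, the genes of the inflammatory cytokines interleukin-1 alpha and interleukin-1 beta, IL36G, the gene of an epithelial cytokine of the same family, and IL1RN, the gene of the receptor antagonist that blocks interleukin-1 signalling. The members described here are the ChIP-seq peaks of 5 transcription factors with a summit in chr2:113500000-113920000 (hg19), a stretch of 420 kb, so that membership depends on position alone. Of the 879550 peaks in the 10 lists on chromosomes 1 to 22 and X, 393 lie in this region. ChIP-seq measures where a protein is crosslinked to DNA, and a peak is a place with more reads than the local background. The libraries are from ER-Src cells, the immortalised, non-tumour mammary epithelial line MCF-10A with a v-Src oncoprotein made inducible by joining it to the estrogen receptor's ligand binding domain. All 10 libraries come from cells with this fusion. Non-transformed cells were grown with the solvent ethanol, for 36 h according to the library names in the lists, and transformed cells received 1 μM 4-hydroxy-tamoxifen for 12 h. FOS, JUN, and JUNB (AP-1 proteins), NFKB1 (an NF-κB subunit), and STAT3 have 1 library in each state, so no difference between states has a replicate check and none was tested. The replicate letters in the library names differ between the states for JUNB and STAT3. By its catalogue number, the STAT3 antibody is listed in the study's methods as one against phosphorylated STAT3.

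Interleukin-1 alpha and beta act on the same receptor, and signalling from it activates both NF-κB and AP-1. IL1A and IL1B are themselves well-known NF-κB target genes, so that the cytokines can maintain their own expression in inflamed epithelium. AP-1 proteins bind DNA as dimers of a FOS and a JUN family member or of JUN family members, whereas STAT3 binds as a dimer after phosphorylation downstream of cytokine receptors and Src.

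The start sites used here are position 113542971 for IL1A and 113594356 for IL1B, 51.4 kb apart. The RefSeq promoter table of GRCh38.p14 puts its 2 IL1A starts 52.3 and 52.4 kb from the IL1B start, so the IL1A start used here differs from those of RefSeq by about 1 kb. Both genes are read towards lower coordinates, so sites between the starts lie upstream of IL1A and downstream of the IL1B start. In RefSeq order, IL1A and IL1B are followed by IL37, IL36G, IL36A, IL36B, IL36RN, IL1F10, and IL1RN. The starts of IL36G and IL1RN in hg19 were not used here, and no peak was assigned to them. The 250 bases before the first RefSeq start of 3 members are shown because they hold a recognition sequence of 1 of the proteins studied. They are from GRCh38.p14, not from the build of the peaks, at chr2:112784494-112784743 (minus strand), chr2:112836780-112837029 (minus strand), and chr2:113117721-113117970 (plus strand), and the capitals mark a match.
IL1A: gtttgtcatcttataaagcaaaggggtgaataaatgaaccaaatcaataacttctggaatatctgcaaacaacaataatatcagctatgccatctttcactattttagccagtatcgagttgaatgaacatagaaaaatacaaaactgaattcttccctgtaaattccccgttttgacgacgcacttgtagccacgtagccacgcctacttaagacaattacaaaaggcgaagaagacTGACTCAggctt
IL1B: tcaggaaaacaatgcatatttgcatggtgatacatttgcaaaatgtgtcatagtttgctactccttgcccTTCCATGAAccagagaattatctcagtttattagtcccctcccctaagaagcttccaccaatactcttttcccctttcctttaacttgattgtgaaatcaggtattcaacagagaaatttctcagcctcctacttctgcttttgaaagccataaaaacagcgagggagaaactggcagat
IL1RN: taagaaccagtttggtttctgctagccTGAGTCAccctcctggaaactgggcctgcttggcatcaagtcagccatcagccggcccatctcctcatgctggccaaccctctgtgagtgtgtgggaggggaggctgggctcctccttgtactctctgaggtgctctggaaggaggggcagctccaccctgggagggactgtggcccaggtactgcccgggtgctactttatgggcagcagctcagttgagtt
The motifs searched on both strands were TGANTCA for AP-1, TTCNNNGAA for STAT proteins, and the κB consensus for NF-κB. IL1A has an AP-1 match from 12 to 6 bases before its first RefSeq start, and the window of its other start holds 2. IL1RN has an AP-1 match that begins 223 bases before its first start. IL1B has a STAT match, TTCCATGAA, from 180 to 172 bases before its start. The IL1B window holds no AP-1 match. The window of IL36G, and those of the other IL1RN starts, hold none of the 3 motifs. No window of any member holds a κB match. Among all 35116 RefSeq promoters, 6.57% hold an AP-1 match, 6.57% a STAT match, and 9.96% a κB match in the same 250 bases. A match is a description of these letters and not of binding.

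More peaks were listed in this region in transformed than in non-transformed cells for every protein. FOS had 42 peaks in non-transformed and 62 in transformed cells, JUN 35 and 63, JUNB 24 and 46, NFKB1 8 and 50, and STAT3 14 and 49. Together these are 123 and 270 peaks. The complete lists were longer in transformed cells too. The ratio of transformed to non-transformed peaks in the region and over all chromosomes was 1.48 and 1.37 for FOS, 1.80 and 1.56 in the case of JUN, 1.92 and 1.34 for JUNB, 6.25 and 5.57 for NFKB1, and 3.5 and 1.87 for STAT3. A deeper library can show weaker peaks, and the filtered reads ranged from 4837474 (NFKB1, non-transformed) to 22082403 (FOS, transformed). The transformed library had 1.19 (FOS), 1.16 (JUN), 1.72 (JUNB), 2.0 (NFKB1), and 0.821 (STAT3) times the reads of its non-transformed counterpart. With 1 library each, depth and state cannot be told apart.

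The region was among the densest of its size in transformed cells. When chromosomes 1 to 22 and X were divided into consecutive stretches of the same length, 6698 of which hold a peak in any list, only 10 stretches had at least 50 NFKB1 peaks and only 11 had at least 63 JUN peaks in transformed cells. For STAT3 the number was 17, and the median stretch had 10 STAT3 peaks. As many JUNB peaks as in the region were found in 30 stretches, and as many FOS peaks in 62. In non-transformed cells the region stood out less for STAT3, with at least 14 peaks in 10.0% of the stretches. At least 8 NFKB1 peaks were found in 3.40% of the stretches. The shares with as many peaks as the region were 2.40% for FOS, 2.02% for JUN, and 5.48% for JUNB. This ranking is a description of the lists and depends on their length.

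**Figure D1:**
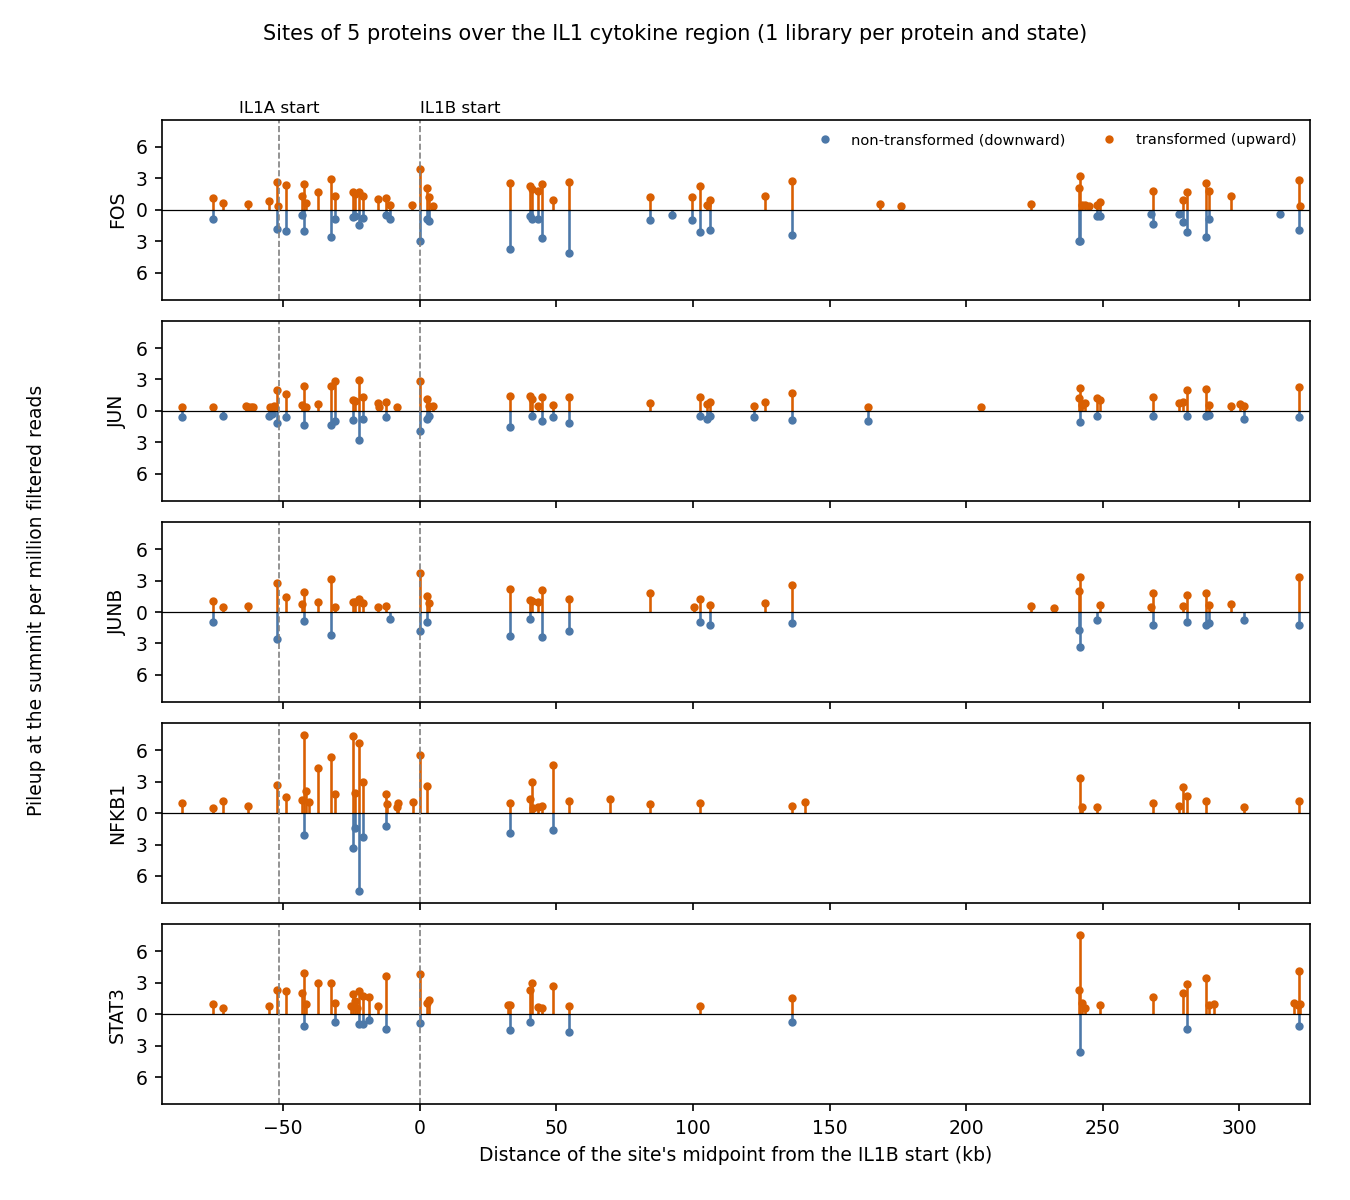
Pileup in reads per 1000000 filtered reads (vertical axis, transformed cells upward and non-transformed cells downward) at each site of FOS, JUN, JUNB, NFKB1, and STAT3, by distance of the site's midpoint from the IL1B start in kb; dashed lines mark the starts of IL1A and IL1B. The tallest NFKB1 peaks lie between the starts, and the tallest STAT3 peak lies 241.8 kb from the IL1B start.

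To compare proteins, a window from 150 bp before to 150 bp after the summit stood for each peak, and windows of all 10 lists that share a base were joined into a site. This gave 91 sites in the region, of a median length of 339 bp, out of 248897 sites in all. Of the 91 sites, 48 had a peak in both states, 40 had none in non-transformed cells (44.0%, background 34.6%), and 3 had none in transformed cells (3.30%, background 15%). Sites with all 5 proteins were more frequent here than over all chromosomes in transformed cells. All 5 proteins were listed at 29 sites (31.9%, Wilson 95% interval 23.2 to 42.0%), against a background of 14.8% over all sites, and 34 of the 88 sites with any protein had 1 (38.6%, background 40%). In non-transformed cells all 5 were listed at 2 sites, 2.20% against a background of 2.41%, and 18 of the 51 sites with any protein had 1 (35.3%, background 49.1%). Among the single-protein sites of transformed cells, 10 were listed for JUN, 7 each for FOS, NFKB1, and STAT3, and 3 for JUNB. The next most frequent sets were the 3 AP-1 proteins with STAT3, at 5 sites, and JUN with NFKB1, at 4. These sets were not counted over all chromosomes, so their counts do not set the region apart. The Wilson intervals here describe the number of sites and not variation between cultures. With the stricter threshold of −log10 q of at least 10, the 29 sites became 12 and the 2 became 0. The background was not computed at this threshold, so the difference from it was not checked there.

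Most FOS sites were already listed in non-transformed cells. Of the 61 FOS sites, 37 were listed in both states (60.7%, background 54.8%), 20 (32.8%, Wilson 95% interval 22.3 to 45.3%) only in transformed cells, and 4 only in non-transformed cells (background 10.7%). The background of sites listed only in transformed cells is 34.5% for FOS, close to the share in this region. For JUN, 28 of 63 sites (44.4%, 32.8 to 56.7%) were listed only in transformed cells against a background of 43.2%. For JUNB the share was 24 of 47 sites (51.1%, 37.2 to 64.7%), above the background of 37.3%, which lies just inside the interval. JUN and JUNB each had 3 sites listed only in non-transformed cells (backgrounds 11.6 and 15.8%). Sites listed only in transformed cells were weaker than those listed in both states for all 5 proteins. Their median pileup, the count of extended reads covering a summit, was 0.543 reads per 1000000 filtered reads (RPM) in the FOS library, 0.515 RPM in that of JUN, and 0.762 RPM in that of JUNB. In the same libraries, the sites listed in both states had medians of 1.77, 1.30, and 1.87 RPM. The medians of transformed-only and both-state sites in transformed cells were 1.03 and 3.77 RPM for NFKB1. For STAT3 they were 1.06 and 2.29 RPM. These medians were not computed over all chromosomes.

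For NFKB1, 39 of 47 sites (83.0%, Wilson 95% interval 69.9 to 91.1%) were listed only in transformed cells, and the background is as high, 82%. The remaining 8 were listed in both states, and no NFKB1 site of the region was listed only in non-transformed cells (background 1.79%). The non-transformed list holds no NFKB1 peak with fewer than 4 reads, or 0.827 RPM. In transformed cells 11 of the 39 sites were under this level, so at equal occupancy their expected reads fall below it. Over all chromosomes, 40.2% of the transformed-only NFKB1 sites were under it. STAT3 differed more from its background, with 34 of 48 sites (70.8%, 56.8 to 81.8%) listed only in transformed cells against 53%. No STAT3 site was listed only in non-transformed cells, whereas 13.2% of the STAT3 sites of all chromosomes were. None of the 34 STAT3 sites was under the lowest level that the non-transformed list holds, 0.457 RPM, and over all chromosomes 0.561% were. This level is the lowest of the whole list, so passing it does not show that a site could have been listed.

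**Figure D2:**
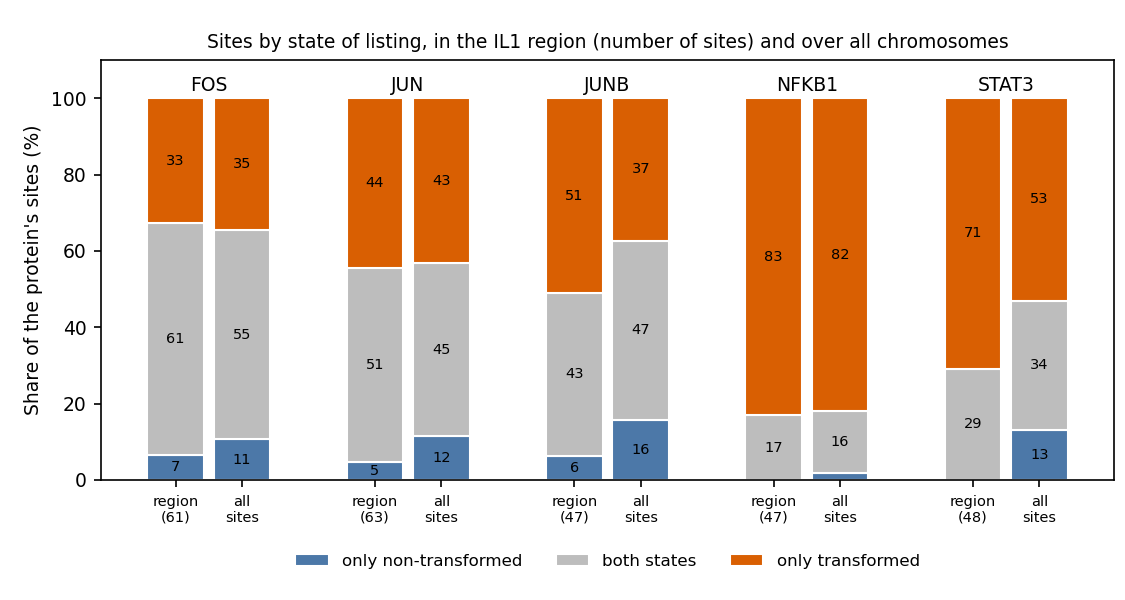
Share of each protein's sites (vertical axis, %) listed only in non-transformed cells, in both states, or only in transformed cells, in the IL1 region (number of sites in parentheses) and over all chromosomes. The transformed-only share is 70.8% in the region for STAT3 and 53% over all sites, whereas FOS, JUN, and NFKB1 have similar bars in the region and in all.

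The sites that STAT3 or NFKB1 had only in transformed cells overlapped earlier AP-1 sites about as often as over all chromosomes. Of the 34 such STAT3 sites, 22 (64.7%, Wilson 95% interval 47.9 to 78.5%) had a FOS, JUN, or JUNB peak in non-transformed cells, against a background of 62.7%. Of the 39 such NFKB1 sites, 27 (69.2%, 53.6 to 81.4%) did, against 73.6%. Among peaks of at least 2 RPM, those of AP-1 included, the shares were 41.2% of 17 STAT3 sites and 40.0% of 10 NFKB1 sites. In transformed cells themselves, 28 of the 34 (background 83.2%) and 32 of the 39 (background 84.7%) had an AP-1 peak. Over all STAT3 sites of that state the count was 41 of 48 (background 88.1%), and over all NFKB1 sites 40 of 47 (background 86.2%). Seen from FOS in transformed cells, 41 of its 57 sites (71.9%, 59.2 to 81.9%) carried STAT3 and 36 (63.2%, 50.2 to 74.5%) carried NFKB1, against backgrounds of 40.8% and 36.1%. STAT3 and NFKB1 shared 33 sites in transformed cells, 68.8% of the STAT3 and 70.2% of the NFKB1 sites, with backgrounds of 57.8% and 62.9%.

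Where a protein was listed in both states, its signal was compared in RPM. STAT3 was higher in transformed cells at 12 of its 14 sites, each by at least 1.5-fold (background of such sites 58.8%), and at least 1.5-fold lower at 2 (background 3.89%). The median ratio of transformed to non-transformed was 2.29, with an order-statistic 95% interval of 1.52 to 3.55, against 1.71 over all STAT3 sites. MACS extended reads to 150 bp in the non-transformed and 119 bp in the transformed STAT3 library, and with fold enrichment over the local background the median ratio was 1.95. JUN was at least 1.5-fold higher at 17 of 32 sites (background 36.6%), and lower by as much at 3 (background 4.53%), with a median ratio of 1.58 (1.17 to 2.07) against 1.29 over all sites. FOS had a median ratio of 1.19 (1.10 to 1.42) against 0.949, and was at least 1.5-fold higher at 11 of 37 sites (background 18.5%) and lower at 3 (background 20.4%). JUNB had 1.34 (0.977 to 1.68) against 0.964 and was at least 1.5-fold higher at 9 of 20 sites (background 18.6%) and lower at 3 (background 21%). NFKB1 had 1.43 against 1.03 over only 8 sites, which ranged from 0.50 to 3.60, and 4 of the 8 were at least 1.5-fold higher (background 23.7%) and 1 lower (background 18.1%). The median of each of the 5 proteins in the region was thus above its median over all sites. At single sites the reads are few. The counting interval of the ratio lay above 1 at 9 FOS, 11 JUN, 3 JUNB, 3 NFKB1, and 9 STAT3 sites. It lay below 1 at 3 FOS sites and no site of the others. The share of such sites over all chromosomes was not computed, so these counts do not set the region apart. Among peaks of at least 2 RPM the median ratio was 1.01 for FOS, 0.977 for JUNB, and 1.05 for JUN, the last from 1 site.

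**Figure D3:**
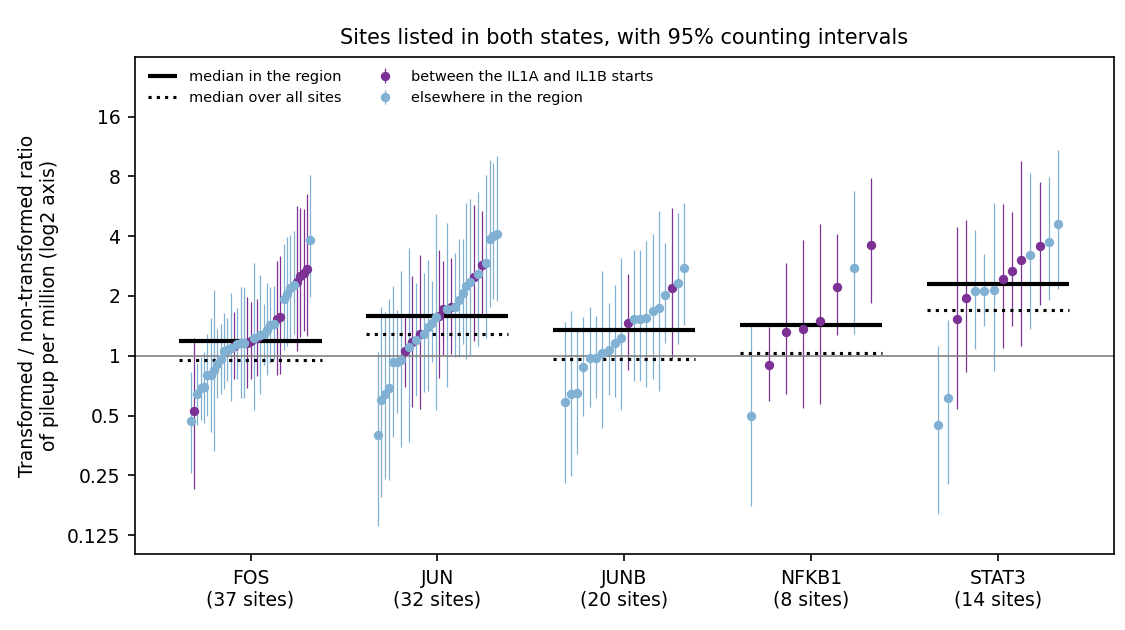
Transformed to non-transformed ratio of RPM (log2 axis) at each site listed in both states, with 95% intervals that cover counting error only; solid lines are the medians in the region and dotted lines those over all sites. The solid line lies above the dotted line for each protein, at 2.29 and 1.71 for STAT3.

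The peaks were unevenly spread over the region. The 51.4 kb between the starts of IL1A and IL1B held 15.8 peaks per 10 kb in transformed cells and 6.62 in non-transformed cells. Below the IL1A start the density was 6.75 and 2.09, and above the IL1B start, over 325.6 kb that include IL36G and IL1RN, it was 4.91 and 2.46. Between the starts lay 6 of the 8 NFKB1 peaks of non-transformed cells and 19 of the 50 of transformed cells. For the others in transformed cells, these were 16 of 49 for STAT3, 14 of 46 for JUNB, 16 of 63 for JUN, and 16 of 62 for FOS. In non-transformed cells they were 6 of 14, 3 of 24, 8 of 35, and 11 of 42, in the same order. Below the IL1A start neither NFKB1 nor STAT3 had a listed peak in non-transformed cells, and they had 5 and 4, respectively, in transformed cells. Peak heights differed by protein. In transformed cells, NFKB1 had a median of 1.86 RPM between the starts, 0.930 below, and 1.03 above, and the corresponding STAT3 medians were 1.84, 0.892, and 1.12 RPM. The FOS medians were 1.31, 0.747, and 1.34 RPM, those of JUN 0.975, 0.379, and 0.867, and those of JUNB 0.952, 0.794, and 1.17, so FOS and JUNB were not higher between the starts than above. Of the AP-1 proteins, JUN was higher in transformed cells at all 8 sites between the starts listed in both states, with a median ratio of 1.65. FOS was higher at 10 of 11, with 1.53. Above the IL1B start, JUN was higher at 16 of 22 such sites, with 1.52, and FOS at 15 of 24, with 1.12. Of the 29 sites with all 5 proteins in transformed cells, 11 lay between the starts, 16 above, and 2 below. STAT3 was higher in transformed cells at all 6 sites between the starts that were listed in both states, with a median ratio of 2.56. Above the IL1B start it was higher at 6 of 8, with 2.13. The share of higher sites over all chromosomes was not computed. The median ratios over all sites were 1.29 for JUN, 0.949 for FOS, and 1.71 for STAT3.

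At IL1B, 1 site was found within 2 kb of the start, at chr2:113594383-113594756, and it carried all 5 proteins in transformed cells. The summits lay 205 to 250 bp upstream of the start in transformed cells, within 45 bp of each other. In non-transformed cells FOS was at 3.01 RPM, JUN at 1.96, JUNB at 1.85, and STAT3 at 0.823, and NFKB1 was not listed. In transformed cells FOS was at 3.85 RPM, JUN at 2.87, JUNB at 3.75, NFKB1 at 5.58, and STAT3 at 3.79. Every protein was thus higher in transformed cells, but only for STAT3 and JUNB did the counting interval of the ratio lie above 1, at 4.60 (2.16 to 10.9) for STAT3 and 2.02 (1.16 to 3.70) for JUNB. The FOS and JUN ratios were 1.28 (0.903 to 1.83) and 1.47 (0.926 to 2.37). NFKB1 had 54 reads at this site in transformed cells, and its interval of 4.19 to 7.28 RPM lies above the lowest level of the other list, 0.827. This was the strongest FOS and the strongest JUNB peak of the region in transformed cells, with fold enrichments of 38.5 and 33.8. The STAT match of the IL1B promoter shown above lies 180 to 172 bases before the start, as counted in another build. The same 250 bases hold no AP-1 and no κB match.

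At IL1A, the nearest site with more than 1 protein was at chr2:113541873-113542281, and it carried all 5 proteins in transformed cells. Its summits in these cells lay 840 to 894 bp downstream of the IL1A start used here, and 52225 to 52279 bp from the IL1B start. The first RefSeq start of IL1A, which follows the AP-1 match shown above, lies 52286 bp from that of IL1B in GRCh38.p14. If this spacing is the same in both builds, the summits lie at the RefSeq start of IL1A and not within the gene. Coordinates were not converted between builds. The 3 AP-1 proteins were listed there in both states, and NFKB1 and STAT3 in transformed cells only. FOS had 1.88 RPM in non-transformed and 2.67 in transformed cells, JUN 1.14 and 2.0, and JUNB 2.61 and 2.79. NFKB1 was at 2.69 and STAT3 at 2.34 in transformed cells. None of the 3 AP-1 ratios had an interval above 1, with 1.42 (0.920 to 2.23) for FOS, 1.77 (0.980 to 3.29) for JUN, and 1.07 (0.636 to 1.84) for JUNB. The only other peak within 2 kb of this start was a weak FOS peak of transformed cells, 395 bp downstream, with 9 reads or 0.408 RPM.

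**Figure D4:**
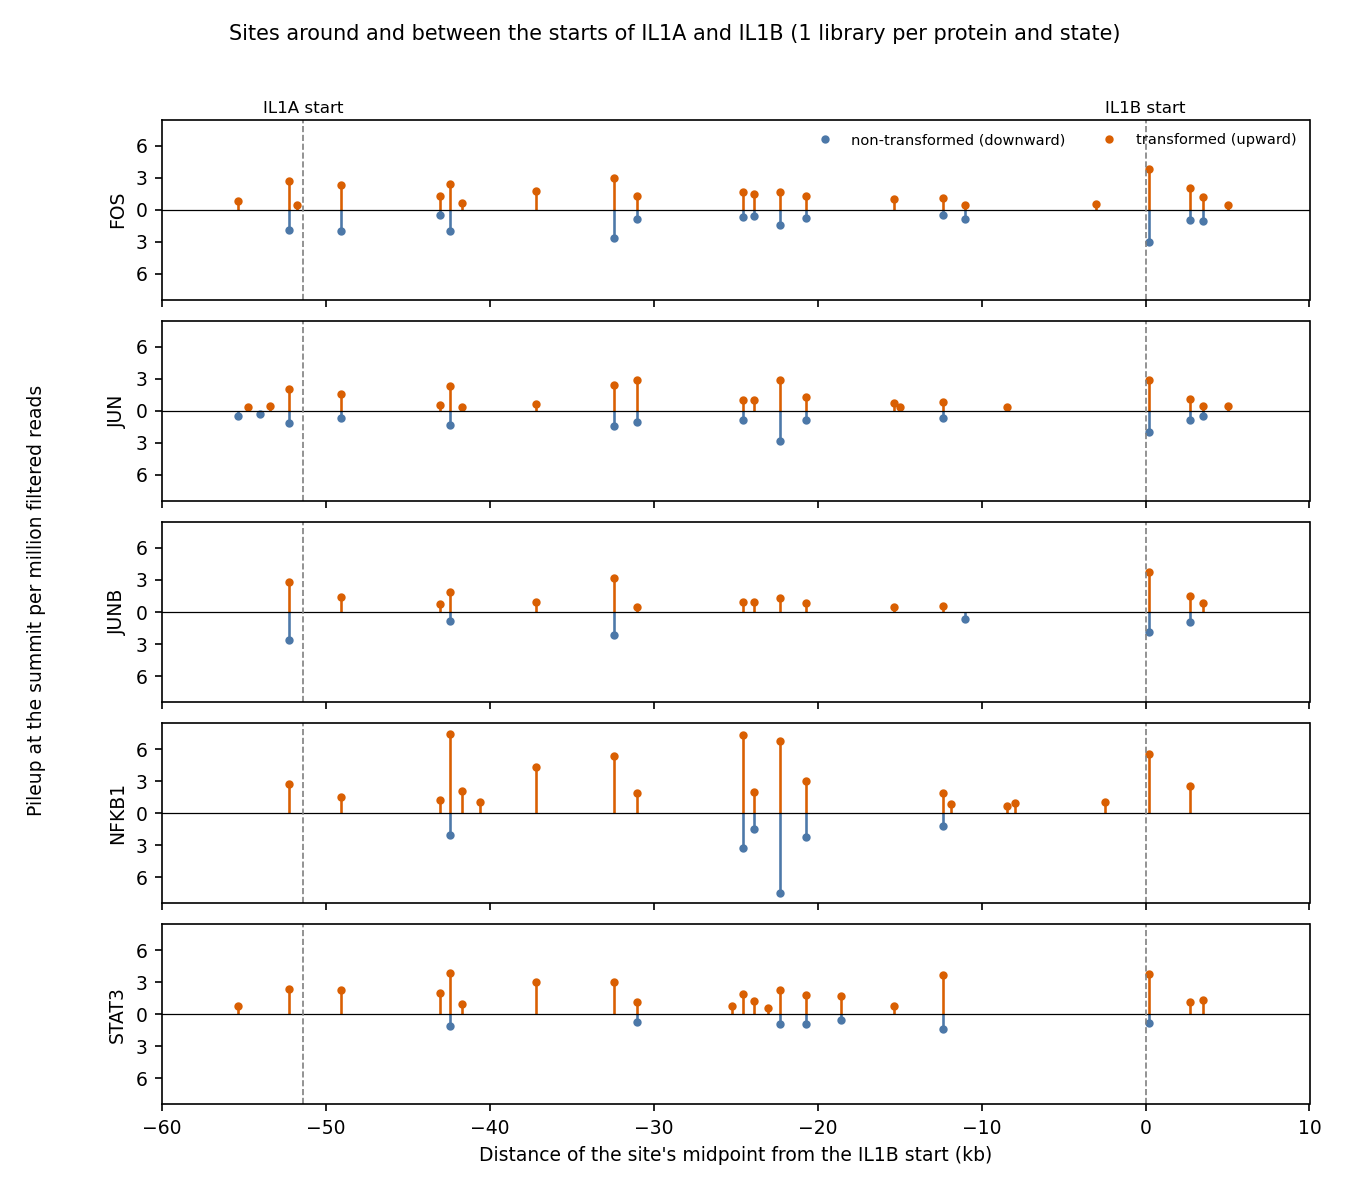
The same values from 60 kb below to 10 kb above the IL1B start, with transformed cells upward and non-transformed cells downward. NFKB1 has its tallest peaks between the 2 starts, at 7.44 RPM in both states but at different sites, and the site at the IL1B start has no NFKB1 peak in non-transformed cells.

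Between the starts, 5 sites were among the strongest of the region or new in transformed cells. The NFKB1 peak at chr2:113551737-113552125, 42.4 kb downstream of the IL1B start and 8.96 kb upstream of the IL1A start, ranked 288 among the 73822 NFKB1 peaks of transformed cells. NFKB1 was 2.07 RPM in non-transformed and 7.44 in transformed cells at this site, a ratio of 3.60 (1.85 to 7.83). STAT3 was at 1.10 and 3.90, a ratio of 3.55 (1.80 to 7.52), whereas FOS, at 1.99 and 2.45, had a ratio of 1.23 (0.795 to 1.92). JUN was at 1.32 and 2.33, and JUNB at 0.872 and 1.90.

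The site at chr2:113571907-113572250, 22.3 kb from the IL1B start, behaved differently. NFKB1 was already at 7.44 RPM in non-transformed cells and at 6.72 in transformed cells, a ratio of 0.903 (0.592 to 1.40). JUN had its strongest peak of the region here in both states, at 2.78 and 2.93, with a ratio of 1.05 (0.695 to 1.61). STAT3 was at 0.915 and 2.23, FOS at 1.45 and 1.68, and JUNB was listed only in transformed cells, at 1.27. At this site NFKB1 and JUN thus differed little between the states in RPM, and the STAT3 ratio was 2.44 (1.09 to 5.83). With fold enrichment the NFKB1 ratio was 1.39 and that of JUN 1.09.

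At chr2:113569534-113570002, 24.6 kb from the IL1B start, NFKB1 was at 3.31 RPM in non-transformed and 7.34 in transformed cells, with a ratio of 2.22 (1.28 to 4.09). FOS was at 0.644 and 1.68, a ratio of 2.60 (1.33 to 5.48), and JUN was at 0.883 and 1.03. JUNB, at 0.952, and STAT3, at 1.90, were listed only in transformed cells. At chr2:113561741-113562163, 32.4 kb from the IL1B start, the AP-1 proteins were present in both states, with 2.63 and 2.94 for FOS, 1.39 and 2.38 for JUN, and 2.18 and 3.17 for JUNB. NFKB1 at 5.38 and STAT3 at 3.01 were listed there only in transformed cells. Of the 40 sites with no protein listed in non-transformed cells, 1 had all 5 in transformed cells, at chr2:113556945-113557351, against a background of 1.26%. NFKB1 led this site at 4.34 RPM, followed by STAT3 at 3.01, FOS at 1.72, JUNB at 0.952, and JUN at 0.650, and the levels of different antibodies cannot be compared as occupancy.

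**Figure D5:**
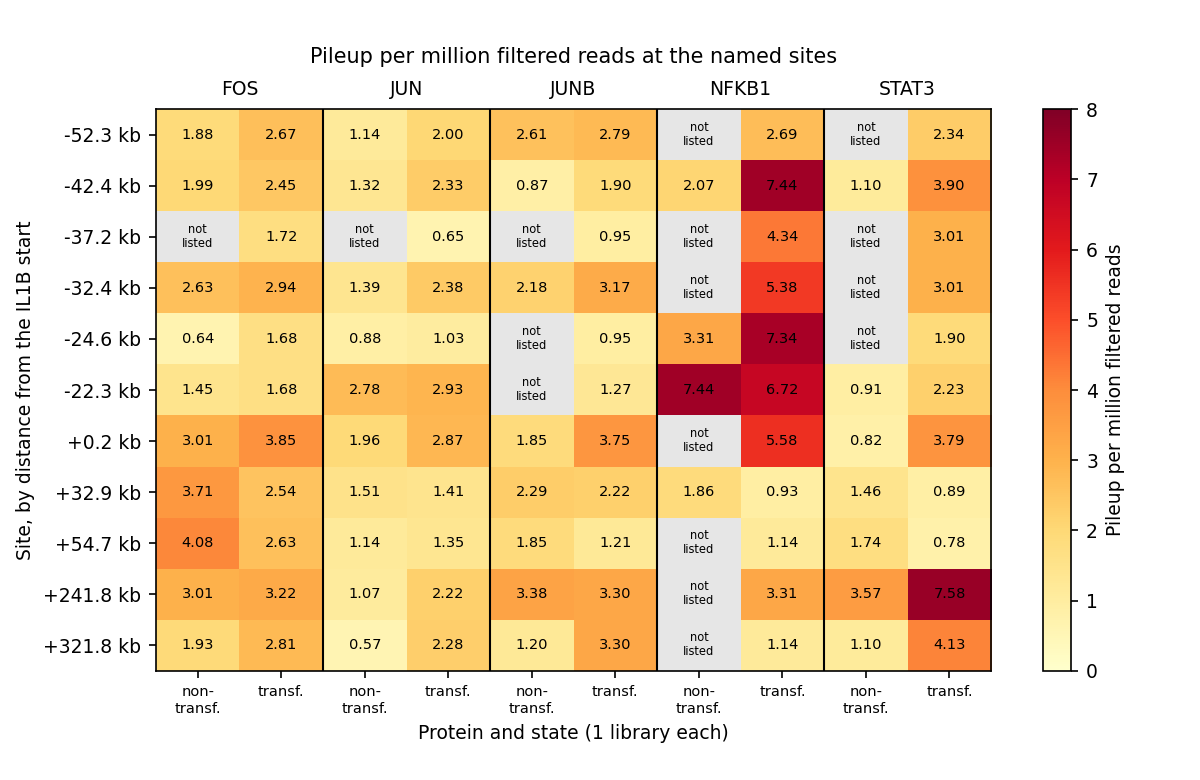
Pileup in reads per 1000000 filtered reads (colour and number) at 11 sites (rows, by distance from the IL1B start in kb) in the 10 libraries (columns); grey cells were not listed. NFKB1 is absent from the non-transformed column at 7 of the 11 sites and listed at all 11 in transformed cells, and the sites at 32.9 and 54.7 kb have lower FOS and STAT3 values in transformed cells.

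Above the IL1B start, the largest site was at chr2:113835975-113836353, 241.8 kb away, and was led by STAT3. STAT3 was at 3.57 RPM in non-transformed and 7.58 in transformed cells, with a ratio of 2.13 (1.41 to 3.24), and this was its strongest peak of the region in each state. FOS, at 3.01 and 3.22, and JUNB, at 3.38 and 3.30, differed little in RPM, with ratios of 1.07 (0.743 to 1.55) and 0.977 (0.615 to 1.58). With fold enrichment the ratios were 1.06 for FOS and 1.34 for JUNB. JUN was at 1.07 and 2.22, a ratio of 2.07 (1.15 to 3.89), and NFKB1 was listed only in transformed cells, at 3.31. At the far end of the region, at chr2:113915950-113916271, JUN was at 0.568 and 2.28, JUNB at 1.20 and 3.30, and STAT3 at 1.10 and 4.13. The ratios there were 4.01 (1.92 to 9.37) for JUN, 2.75 (1.42 to 5.86) for JUNB, and 3.76 (1.92 to 7.92) for STAT3, whereas FOS, at 1.93 and 2.81, had 1.45 (0.948 to 2.25). The summits of the 5 proteins in transformed cells fell within 5 bp at this site.

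FOS had a ratio whose counting interval lay below 1 at 3 sites above the IL1B start. At chr2:113627083-113627471, 32.9 kb above its start, FOS was at 3.71 RPM in non-transformed and 2.54 in transformed cells, with a ratio of 0.684 (0.472 to 0.988). NFKB1 was at 1.86 and 0.930 from 9 reads in each state, the transformed library being the deeper one. With fold enrichment the NFKB1 ratio was 0.784. STAT3 was at 1.46 and 0.892, from 16 and 8 reads. For both proteins the interval of the ratio includes 1. JUN, at 1.51 and 1.41, and JUNB, at 2.29 and 2.22, had nearly equal values in RPM, and the JUNB ratio was 1.31 with fold enrichment. At chr2:113648892-113649316, 54.7 kb above the start, FOS had its strongest peak of the region in non-transformed cells, 4.08 RPM, and was at 2.63 in transformed cells, a ratio of 0.643 (0.449 to 0.918). STAT3 was at 1.74 and 0.781, with a ratio of 0.449 (0.160 to 1.12). These are the 2 sites at which STAT3 was lower in transformed cells, and NFKB1 was listed at the second only in transformed cells, at 1.14. The lowest FOS ratio of the region, 0.468 (0.257 to 0.831), was found at chr2:113700234-113700565, 106 kb above the start, a site named here after its values were seen. FOS was there at 1.93 and 0.906, JUNB at 1.20 and 0.698, and JUN at 0.505 and 0.867, and neither NFKB1 nor STAT3 was listed.

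Summits of different proteins within a site lie close to each other partly by construction, since a site joins windows that share a base. The span of summits over all chromosomes was not computed. At the 29 sites with all 5 proteins in transformed cells, the distance between the first and the last of the 5 strongest summits had a median of 76 bp, and it was at most 100 bp at 22 of them. The range was 5 to 599 bp, the longer values coming from sites in which several neighbouring windows were joined.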

How the data were processed

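The 10 deposited ChIP-seq peak lists of ER-Src cells were analysed, 1 library per protein and state. Per the labels, the reads were aligned with Bowtie to hg19 (version not given in the sources used here). Per the file headers, the authors called peaks with MACS 2.0.10.20131216 on uniquely aligned reads of 36 bp, per library, without a control library, with a local background over 1000000 bp, a q-value cutoff of 0.05, and duplicates reduced to 1 read per position. The deposited pileup is a signal, the extended reads over the summit, not scaled by depth. The deposited fold enrichment is a ratio to the local background, and the deposited significance is −log10 of the p-value and q-value.

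Peaks on chromosomes 1 to 22 and X were used, and positions are those of the lists. Peaks run past the ends of GRCh38 on 14 of 23 chromosomes, so no coordinate was taken from that build except for the printed RefSeq promoters. Pileup was scaled to 1000000 filtered reads (RPM). Sites were joined summit windows of 150 bp on each side sharing at least 1 bp, the highest peak per list was used, and ratios were taken at sites listed in both states. Exact Poisson and Clopper-Pearson 95% intervals cover counting error only. The merging was tested on simulated data. Sites named are those within 2 kb of the IL1A or IL1B start, the 10 with the largest summed RPM, new sites with all 5 proteins, and the strongest peak of each list. The region, the lists, and this rule were chosen with earlier results of these data known. Alternatives were whole peaks, windows of 50 bp, −log10 q of at least 10, at least 2 RPM, fold enrichment, and limits of 1 and 5 kb. Python 3.11.15, numpy 2.4.6, pandas 2.3.3, and scipy 1.17.1 were used.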

Additional observations from a re-analysis of the deposited data

How the results depend on the processing

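Of 69 alternative values, 51 stayed within the error of the main value (or within 1.5 times, for counts), 18 moved, and none reversed a median ratio of 1.5 or more. Whole peaks and windows of 50 bp moved none. With −log10 q of at least 10, 65 peaks of non-transformed and 150 of transformed cells were left, the JUN share listed only in transformed cells was 62.9%, and sites with all 5 proteins numbered 0 and 12, respectively. With at least 2 RPM, the peaks numbered 22 and 66 and the sites with all 5 proteins 0 and 4. The transformed-only shares were then 88.9% of 9 sites for JUN and 94.4% of 18 for STAT3. Under a stricter limit, a site whose non-transformed peak falls below it counts as transformed-only. Of the sites transformed-only in the main setting, 0 for JUN and 10 for STAT3 reach 2 RPM. Backgrounds were not computed at this limit or at the limit of −log10 q. The median ratios were 1.01 for FOS and 1.05 for JUN. The shares with an earlier AP-1 peak were 41.2% for STAT3 and 40.0% for NFKB1. The JUNB median ratio was 0.977 in that setting, under 1 but inside its interval, and 1.75 with fold enrichment. Within 5 kb of the starts, 25 peaks lay at IL1A and 26 at IL1B, against 9 each at 1 and 2 kb. These stricter limits leave few sites, and other causes were not tested. No paired analysis was possible because each group has 1 sample, and no replicate could be left out. Depth was lowest, at 4837474 filtered reads, for NFKB1 in non-transformed cells, where the weakest listed peak is at 0.827 RPM.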

Other observations

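Of the 40 sites with no protein listed in non-transformed cells, 28 had a single protein in transformed cells, against 71.4% of such sites over all chromosomes. The single protein was JUN at 8, NFKB1 at 7, STAT3 at 6, FOS at 5, and JUNB at 2, a split not computed over all chromosomes. Of the rest of the 40 sites, 4 had 2 proteins (17.1% over all chromosomes), 3 had 3 (7.17%), 4 had 4 (3.04%), and 1 had 5 (1.26%). The reverse was rare in this region, since 3 sites had no protein in transformed cells, each with 1 protein in non-transformed cells (93.8% of such sites over all chromosomes). Over all chromosomes, 15.0% of the sites had no protein listed in transformed cells, against 3.30% here.

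The position of a protein's strongest summit within a site was similar in both states, which the joining of overlapping windows favours. The median shift was 13 bp for FOS, 23.5 bp for JUN, 17.5 bp for JUNB, 23 bp for NFKB1, and 32 bp for STAT3, and the medians over all sites listed in both states were 15, 23, 19, 25, and 29 bp. The nearest peaks outside the region have summits at 113494805 and 113956460, and the outermost members at 113507427 and 113916606, so both limits fall in stretches without peaks.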
